A study of Homo sapiens with 20 samples.

Results

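The 41 genes described here are the transporters and enzymes that carry glucose to lactate, the hypoxia-induced genes that lie outside that pathway, and the oxygen-sensing proteins that control them. They were matched by gene symbol to the Ensembl identifiers of the tables, and all 41 were found among the 31155 identifiers listed in any table. The list was drawn up with the day 7 FOXO4 knockdown result in view, so in that comparison the values of the 41 genes are a description and carry no test. The 41 genes include 2 glucose transporters, 15 glycolytic enzymes, 2 PFKFB regulators and 4 genes of pyruvate and lactate handling. The rest are 14 hypoxia-induced genes outside glycolysis and 4 genes encoding HIF subunits or HIF prolyl hydroxylases. Of the enzymes 9 act before the triose phosphates are oxidised, and 6 at that step or after it.

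RNA-seq was done on 20 libraries of H1, a human embryonic stem cell (hESC) line, in 10 groups of 2. The hESC and SE day 3 cells of the first table were wild type. One table held undifferentiated hESC and cells at day 3 of differentiation towards surface epithelium (SE), the stage the study calls initiation. The other 4 tables each held cells carrying a short hairpin RNA against FOXO4 (shFOXO4) or against SP6 (shSP6) and the cells with a scramble hairpin that belong to them, at day 3 or at day 7, the stage of SE maturation, and all of those libraries were from cells under SE differentiation. FOXO4 is a forkhead transcription factor and SP6 a zinc finger transcription factor. The labels name neither the number of hairpins nor clones, give no oxygen level or medium, and do not say that replicates were separate cultures, so p-values measure only the spread between these libraries.

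Glycolysis splits glucose into pyruvate in the cytosol, and lactate dehydrogenase turns pyruvate into lactate when it is not passed to the mitochondria. Hypoxia-inducible factor (HIF) is a dimer of an oxygen-labile alpha subunit, such as HIF1A or EPAS1, with the stable subunit ARNT. The EGLN enzymes hydroxylate the alpha subunits when oxygen is present, which marks them for VHL-dependent degradation, so HIF activity is set largely by protein stability and is not read from HIF1A mRNA. Most glycolytic genes are HIF targets, and pluripotent stem cells are known for high glycolytic flux even in ordinary oxygen.

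HIF binds a short core sequence, ACGTG or, more loosely, GCGTG. The 250 bases before each annotated start were searched on both strands, in sequences from RefSeq (GRCh38.p14), in which 35 of the 41 genes were matched, with 66 starts. The 6 genes not matched in the promoter table used here were NDRG1, BNIP3L, VEGFA, SLC2A3, NDUFA4L2 and STC1. ACGTG was present before 24 of the 66 starts (36.4%), against 18.5% of 35116 starts of all genes. Counted by gene, 21 of 35 (60%) had it before at least 1 start, against 21.7% of 27305 genes. That count favours genes with more starts, and the 35 genes had more starts a gene than all genes did. Either core was present before 41 of 66 starts (62.1%), against 43.2% of all starts. The palindrome CACGTG, which contains ACGTG on both strands and is also a binding sequence of other factors, was present before 9 of 66 starts (13.6%), against 6.34%. The forkhead core GTAAACA was found before 0 of 66 starts, against 2.98%. With so low a share over all starts, few matches would be found in 66, and nothing is read from this count. A match is only a run of letters in this window and was not tied to any binding. The genes were listed as glycolytic or hypoxia-induced, and most such genes are known HIF targets. A higher share of the HIF core is therefore partly built into the list. The starts of all genes were not matched to these for base content. Below are 4 of these windows, chosen after the values were seen because their genes are among those described and each holds ACGTG at least 2 times counting both strands. Each is written 5′ to 3′ on the strand of the gene with ACGTG and its reverse complement in capitals. They are the windows of a lower glycolytic enzyme, an upper one and a pair of hypoxia-induced genes outside glycolysis.
PGK1, chrX:78103998-78104247, plus strand: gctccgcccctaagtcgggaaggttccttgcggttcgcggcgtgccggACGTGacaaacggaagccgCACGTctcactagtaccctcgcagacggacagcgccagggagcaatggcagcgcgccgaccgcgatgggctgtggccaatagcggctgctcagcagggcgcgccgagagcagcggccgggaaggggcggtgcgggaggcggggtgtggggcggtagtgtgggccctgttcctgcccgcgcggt
ALDOC, chr17:28576896-28577145, minus strand: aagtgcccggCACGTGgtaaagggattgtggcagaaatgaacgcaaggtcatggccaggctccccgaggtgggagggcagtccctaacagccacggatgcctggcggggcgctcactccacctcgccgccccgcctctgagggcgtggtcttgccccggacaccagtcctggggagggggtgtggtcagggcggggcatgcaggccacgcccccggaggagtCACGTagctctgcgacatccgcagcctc
BNIP3, chr10:131981924-131982173, minus strand: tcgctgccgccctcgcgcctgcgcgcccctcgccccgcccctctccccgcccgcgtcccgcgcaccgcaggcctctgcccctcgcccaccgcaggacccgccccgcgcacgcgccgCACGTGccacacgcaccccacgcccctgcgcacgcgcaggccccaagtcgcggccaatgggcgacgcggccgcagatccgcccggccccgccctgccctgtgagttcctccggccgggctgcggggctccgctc
ANKRD37, chr4:185396591-185396840, plus strand: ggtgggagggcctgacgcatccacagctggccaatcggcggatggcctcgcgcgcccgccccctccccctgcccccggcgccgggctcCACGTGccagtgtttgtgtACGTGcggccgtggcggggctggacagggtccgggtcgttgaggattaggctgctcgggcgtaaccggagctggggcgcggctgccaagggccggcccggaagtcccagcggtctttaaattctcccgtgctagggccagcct
In PGK1 the matches began 202 and 183 bases before the start. In ALDOC they began at 240 and 239, where the palindrome gives both, and at 28. BNIP3 held the palindrome alone, at 134 and 133. ANKRD37 held the palindrome at 162 and 161 and a further match at 143.

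Each library held 14937104 to 30328846 reads in the listed genes. FOXO4 was at 35.5 normalized counts in both shFOXO4 libraries of day 7 against 1206 and 1009 in their scramble libraries, and SP6 was at 85.7 and 93.1 in shSP6 at day 7 against 4077 and 3040. At day 3 FOXO4 was at 322 and 319 against 1875 and 2026, and SP6 at 203 and 322 against 1790 and 1939. At day 7 each knockdown was also low in the other factor, with SP6 at 520 and 457 in shFOXO4 against 5230 and 4867, and FOXO4 at 253 and 225 in shSP6 against 1513 and 1204. At day 3 SP6 was already low in shFOXO4, at 395 and 438 against 1142 and 1296. FOXO4 in shSP6 at day 3 overlapped its scramble, at 3197 and 3351 against 3084 and 3779. The summed level of 7 pluripotency markers was 116453 to 127082 in shFOXO4 at day 7 against 33410 to 39416 in scramble, and 121559 to 122825 in shSP6 against 74358 to 89397. The summed level of 8 surface epithelium markers was 37909 to 39093 in shFOXO4 at day 7 against 134204 to 139450, and 27836 to 28347 in shSP6 against 126943 to 147282. At day 3 the pluripotency sum was 113684 to 116124 in shFOXO4 against 71306 to 74511, and 110795 to 115519 in shSP6 against 69831 to 81612. Undifferentiated hESC were at 114482 to 115081 on this sum, and at 10624 and 10690 on the surface epithelium sum. On the pluripotency and surface epithelium sums both knockdowns lay nearer to hESC than their scrambles did. The part of this in the values below was not tested. The summed mesenchymal markers at day 7 were at 48963 and 49962 in shFOXO4 against 45103 and 48323, and at 63763 and 59149 in shSP6 against 33293 and 37943. In hESC this sum was 7427 and 7947, so neither knockdown lay nearer to hESC than its scramble on it. The endothelial sum held only CDH5 and KDR. At day 7 it was 3442 and 3723 in shFOXO4 against 449.9 and 508.8, and 6968 and 7601 in shSP6 against 897 and 1226. At day 3 the endothelial sum was also above scramble in both knockdowns (2772 to 3723 against 820 to 1054), and in hESC it was 5549 and 5653. Neural markers at day 7 were at 5627 and 5661 in shFOXO4 against 6591 and 6953, and at 14378 and 15161 in shSP6 against 6737 and 6519. In hESC they were at 3517 and 2912, so on this sum shSP6 lay farther from hESC than its scramble and shFOXO4 nearer. The part of these sums in the values below was not tested, and blood markers were at or near 0 throughout. In bulk RNA, fewer cells of a type and less RNA per cell cannot be told apart. Mitochondrially encoded mRNA took 5.56% to 7.47% of counts in the day 7 FOXO4 table and 1.07% to 3.38% in the other tables. GAPDH, PGK1, ENO1, PGAM1, LDHA and TPI1 have near-identical processed copies in the genome, and how shared reads were assigned is not given in the sources used here.

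The first comparison asked how these genes behave when hESC enter SE differentiation. Nearly the whole set was lower at SE day 3. Of the 40 genes that passed a mean of 10 normalized counts, 34 fell and 5 rose at an adjusted p under 0.05 (limma on log2(normalized count + 1), Benjamini-Hochberg over 16217 genes), where 37% of all genes fell and 35.2% rose. The median log2 change was -1.19, against -0.02 for all genes. All 39 of these calls remained when any library was left out and under each other alternative in which the gene was tested; ANKRD37 was not tested with a mean of at least 50. NDUFA4L2 passed the filter only through hESC.

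All 15 glycolytic enzymes fell, by a log2 change of -0.36 (PFKL) to -2.95 (ALDOC). PGK1, which makes the first ATP of the pathway, stood at 32480 and 30124 normalized counts in hESC and at 5956 and 5887 at SE day 3, a 5.29-fold fall. LDHA, the lactate dehydrogenase subunit favoured in glycolytic cells, went from 27490 and 25936 to 3512 and 3288, a 7.86-fold fall. ALDOC, an aldolase isozyme, went from 2017 and 2115 to 258 and 276. In none of these did the groups overlap, and the libraries of a group lay close together. The commonly used reference gene GAPDH also fell, 1.67-fold (log2 change -0.74, SE 0.03). The PFKFB enzymes, which set the level of the activator of phosphofructokinase, fell in PFKFB4 by a log2 change of -2.90 and in PFKFB3 by -1.10. Of the glucose transporters, SLC2A1 fell 5.04-fold while SLC2A3 rose slightly (log2 change 0.32, SE 0.04, adjusted p 3.1e-06). SLC16A3, which exports lactate, fell 2.99-fold, and PDK1 and PDK3, kinases that switch off pyruvate dehydrogenase, fell 1.56-fold and 1.67-fold.

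Outside glycolysis 10 of the 13 hypoxia-induced genes that passed the filter fell, 2 rose and 1 was not called. Over all 16217 genes 37% fell and 35.2% rose. BNIP3, a mitophagy receptor, went from 5307 and 5071 to 405 and 352, a 13.7-fold fall. AK4, a mitochondrial adenylate kinase, went from 3137 and 3342 to 242 and 268, and STC1, a secreted glycoprotein hormone, from 1423 and 1494 to 124 and 111. NDUFA4L2, a mitochondrial protein, was at 155 and 149 in hESC and at about 1 read in each SE library. AK4, STC1 and BNIP3 each fell further than any of the 15 enzymes. ADM, the vasodilator peptide adrenomedullin, went the other way, from 450 and 457 to 1608 and 1568 (log2 change 1.81, SE 0.06, adjusted p 3.3e-11), and STC2 rose by 0.31. NDRG1 was not called (log2 change -0.17, SE 0.12). CA9, a carbonic anhydrase, was below the filter in this comparison, at 1.05 to 20.2 normalized counts.

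Of the regulators, EPAS1, the other alpha subunit, was at 120 and 127 in hESC and at 2617 and 2422 at SE day 3, a 20.5-fold rise. HIF1A rose 1.25-fold, from 3387 and 3405 to 4308 and 4217. Of the HIF prolyl hydroxylase genes, EGLN1 fell by a log2 change of -2.40 and EGLN3 by -0.80, while EGLN2, which is not among the 41 genes, rose by 0.94 (SE 0.16, adjusted p 0.00013). Messages of the alpha subunits and most of those of their targets therefore moved in opposite directions between these groups. A second list of 38 HIF targets that are not among the 41 genes was chosen from textbook knowledge. Of these 26 fell and 6 rose, where 37% of all genes fell and 35.2% rose, and their median log2 change was -1.11. Among the 34 whose group means both reached 10, 23 fell and 6 rose. PPFIA4 (-4.07), LOX (-3.86), which crosslinks collagen, and the circadian repressor BHLHE41 (-3.49) fell most, and IGFBP3, an insulin-like growth factor carrier, rose by 6.10.

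At day 7 the FOXO4 knockdown stood far above its scramble for nearly all of the 41 genes. Of the 40 that passed the filter, 37 had both shFOXO4 libraries above both scramble libraries, where 44.4% of 16374 genes did, and 33 were at least 2-fold higher, where 21.8% of genes were. HIF1A and EPAS1 were at least 2-fold lower, where 15.7% of genes were, HIF1A at the very edge of that threshold, so that without replicate 1 of scramble or replicate 2 of shFOXO4 the count was 1. PFKM was level, at a log2 difference of -0.02. These values chose the genes, so nothing is read from the counts. Of the genes that were higher, those closest to the threshold of 2-fold were BNIP3L, just inside at a log2 difference of 1.03, and SLC2A3, just outside at 0.94. With quantile scaling 20 of the 40 values moved by more than the spread between replicates, by -0.41 to 0.09 on the log2 scale, and 33 genes were at least 2-fold higher.

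The glycolytic enzymes were higher by a median log2 difference of 1.66, and 13 of 15 were at least 2-fold higher. GPI, the isomerase that follows hexokinase, was at 2381 and 2249 normalized counts in scramble and at 25887 and 27906 in shFOXO4, an 11.6-fold difference. PGK1 was at 3801 and 4088 against 37714 and 38542, and ENO2, the enolase best known from neurons, at 930 and 746 against 7700 and 8067. ALDOC was at 166 and 199 against 3860 and 3871, the greatest fold difference of the 15 enzymes, at 21.2-fold. Within a step the isozymes stood apart: among phosphofructokinases PFKP was 2.75-fold higher, PFKL 1.54-fold higher and PFKM level; among hexokinases HK2 was 6.59-fold and HK1 2.95-fold higher; among enolases ENO2 was 9.41-fold and ENO1 2.99-fold higher. GAPDH was 2.39-fold and PKM, the last enzyme of the pathway, 3.15-fold higher. The transporters were higher by less, SLC2A1 1.46-fold and SLC2A3 1.92-fold.

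At the exit of the pathway, SLC16A3 was at 724 and 468 in scramble and at 15523 and 16881 in shFOXO4, a 27.2-fold difference. LDHA was at 3637 and 3873 against 30626 and 31443. PDK3 was 3.59-fold and PDK1 1.64-fold higher, and PFKFB3 and PFKFB4 were 4.45-fold and 4.29-fold higher.

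The hypoxia-induced genes outside the pathway were chosen on the same values. The 13 that passed the filter had log2 differences of 1.03 (BNIP3L) to 6.29, with a median of 3.81. AK4 was at 87.9 and 76.0 in scramble and at 3451 and 3667 in shFOXO4, a 43.4-fold difference. STC1 was at 50.6 and 59.0 against 2072 and 2527. NDUFA4L2 was at 10.5 and 18.0 against 1132 and 1186, at a log2 difference of 6.29 the greatest of the 40. BNIP3 was at 605 and 467 against 8443 and 8572. None of these groups overlapped, and each scramble pair was low where each shFOXO4 pair was high. P4HA1, a catalytic subunit of collagen prolyl hydroxylase, was 14.6-fold higher, NDRG1 15.5-fold, and the histone demethylase gene KDM3A 4.55-fold. VEGFA, the angiogenic growth factor, was 4.16-fold and ADM 8.49-fold higher. CA9 was below the filter, at 1.91 and 3.0 against 15.8 and 15.7.

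EGLN3 was at 73.6 and 64.0 in scramble and 1022 and 969 in shFOXO4, and EGLN1 at 274 and 291 against 1467 and 1590, and HIF itself is known to induce both. EGLN2, outside the 41 genes, fell (log2 change -1.19, SE 0.22, adjusted p 0.001). EPAS1 was at 8451 and 8008 against 734 and 767, an 11-fold lower level, and HIF1A at 4062 and 3899 against 2056 and 1924. The alpha subunit messages were thus low where the target messages were high, whereas at SE day 3 they were high and the target messages low. HIF1A is partly overlapped by antisense transcripts, and whether the counting used strand is not given in the sources used here.

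**Figure D1:**
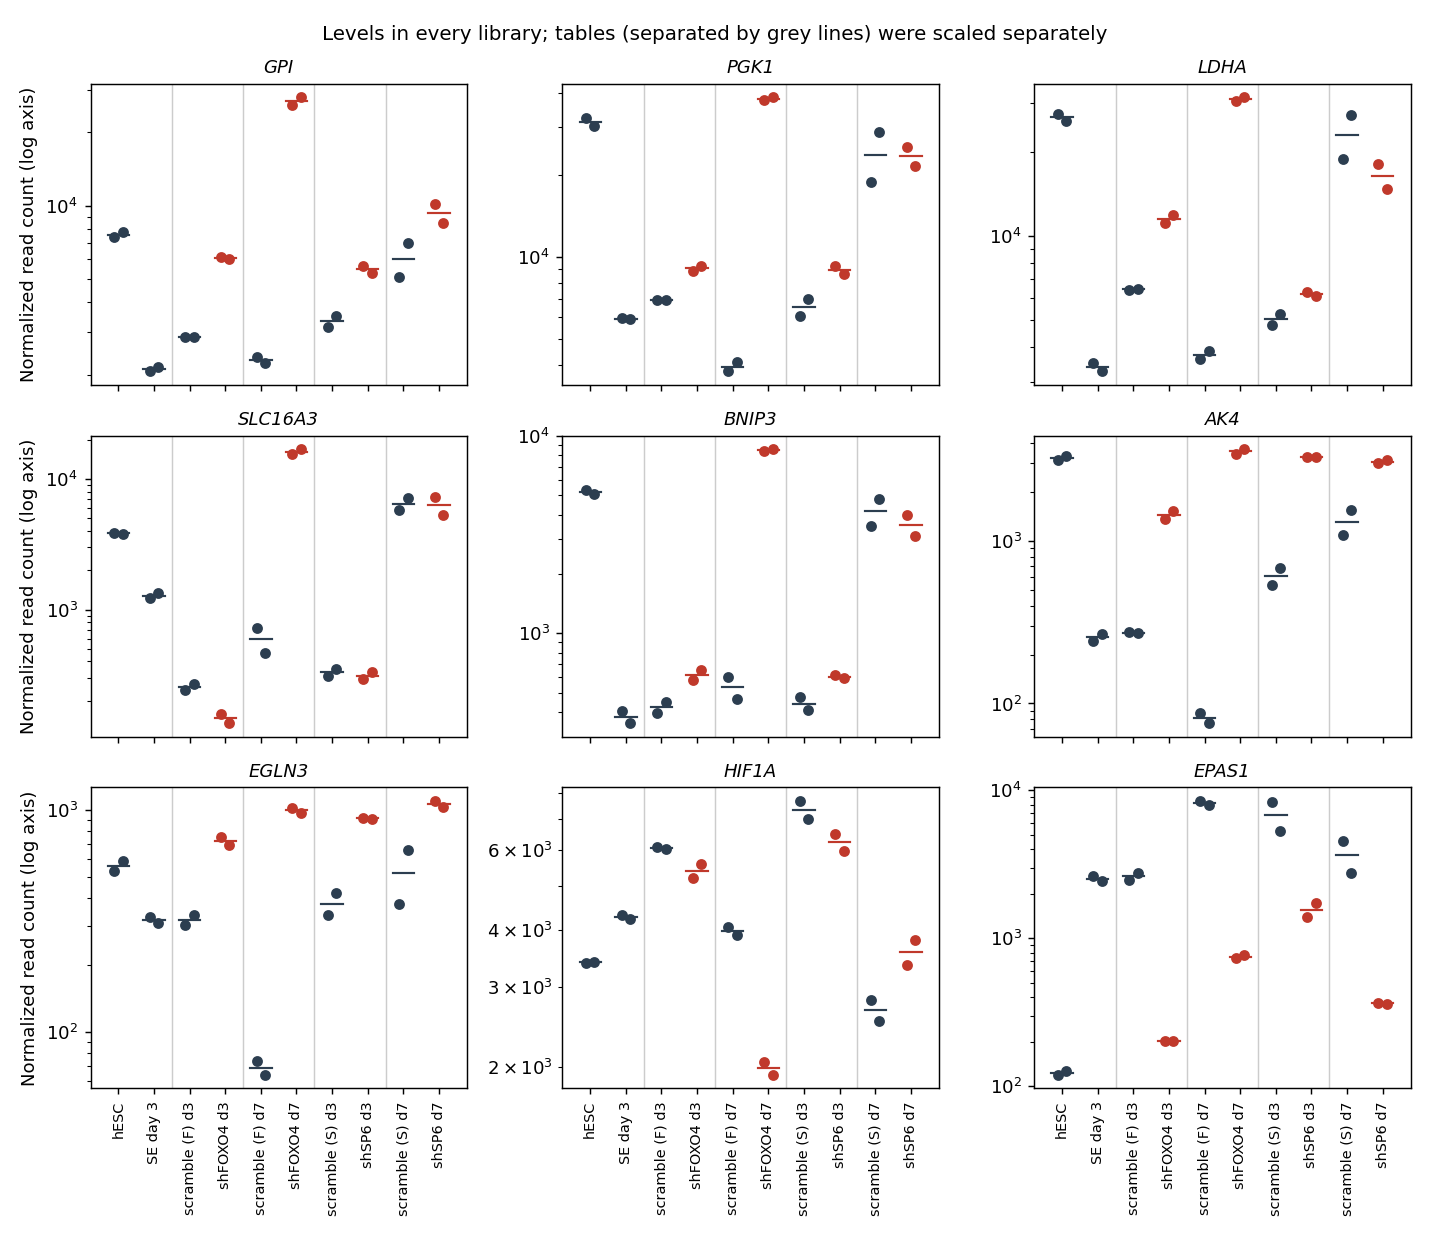
Normalized read counts of 9 genes (log axis) in every library, 2 points a group with a bar at their mean, knockdowns in red. Grey lines part the 5 tables, which were scaled separately. AK4 and EGLN3 are high in both knockdowns at both days, SLC16A3 and BNIP3 are high in shFOXO4 at day 7, and EPAS1 is low in all 4 knockdown groups.

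The 38 further HIF targets were listed from textbook knowledge, with earlier results of these data known, and they were tested. At day 7, 32 of the 38 rose in shFOXO4 and 4 fell (limma, adjusted p under 0.05), where 37.1% of all genes rose and 35.4% fell, and the median log2 change was 1.68 against 0.02 for all genes. Of the 38, 6 passed the filter only through shFOXO4, where they are high (ANGPTL4, LOX, BHLHE41, PPP1R3C, CXCR4 and EPO). Among the other 32, whose group means both reached 10, 26 rose and 4 fell, with a median of 1.45. PPFIA4 had 31 reads over both scramble libraries and 1659 over both shFOXO4 libraries (log2 change 5.85, SE 0.21, adjusted p 3.1e-08). GBE1, the glycogen branching enzyme, rose by 2.59 and PLOD2, a collagen lysyl hydroxylase, by 1.95. PPP1R3C, a subunit that directs a phosphatase to glycogen, had 5 reads over both scramble libraries and 612 over both shFOXO4 libraries, and BHLHE41 had 5 against 418. No size is given for either, since both scrambles lie under the floor of 3 reads a library on average. LOX was at 11.5 and 6.0 normalized counts in scramble against 198 and 246. With any library left out, 28 to 32 of the 38 were called higher. IGFBP3 fell by 4.64 on the log2 scale, from 9725 and 10320 to 440 and 366, and CA12, another carbonic anhydrase, fell by 2.27. CITED2, which competes with HIF for its coactivators, fell by 0.33 and the heme oxygenase gene HMOX1 by 0.68.

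Genes around the pathway moved less uniformly at day 7. Over all 16374 genes tested 37.1% rose and 35.4% fell, and a count near these shares is not read as a trait of its list. PGM1, which joins glycogen to glycolysis, was at 483 and 385 in scramble and at 11377 and 11408 in shFOXO4 (log2 change 4.72, SE 0.10, adjusted p 1.4e-09). Of the 7 other glycolytic isozymes that passed the filter, 5 rose and 1, ADPGK, fell (-0.67). Of 7 pentose phosphate genes 3 rose and 1 fell, with the transketolase TKT up by 1.81 and a fall in PGLS (-0.75). Among 14 other genes of pyruvate and lactate handling 6 rose and 5 fell: PDP1, a phosphatase that reactivates pyruvate dehydrogenase, rose by 0.87, and LDHB, the other lactate dehydrogenase subunit, fell (-0.56). Of 4 gluconeogenic genes that passed, FBP1 (2.57), PCK2 (1.23) and G6PC3 (1.0) rose and PC fell (-0.74). Of 16 tricarboxylic acid (TCA) cycle genes 10 rose and 2 fell, with a median of 0.44, led by SUCLA2 (2.92) and IDH3A (1.43). The median changes of the pyruvate and lactate list (0.03) and the pentose phosphate list (0.04) lay near that of all genes. Of 12 regulators of HIF, 5 fell and 2 rose. The coactivators CREBBP (-1.78) and EP300 (-1.23) and the ARNT homologue ARNT2 (-1.92) fell, while HIF3A, an alpha subunit often described as inhibitory, rose by 1.47. ARNT was not called (-0.06, SE 0.07).

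**Figure D2:**
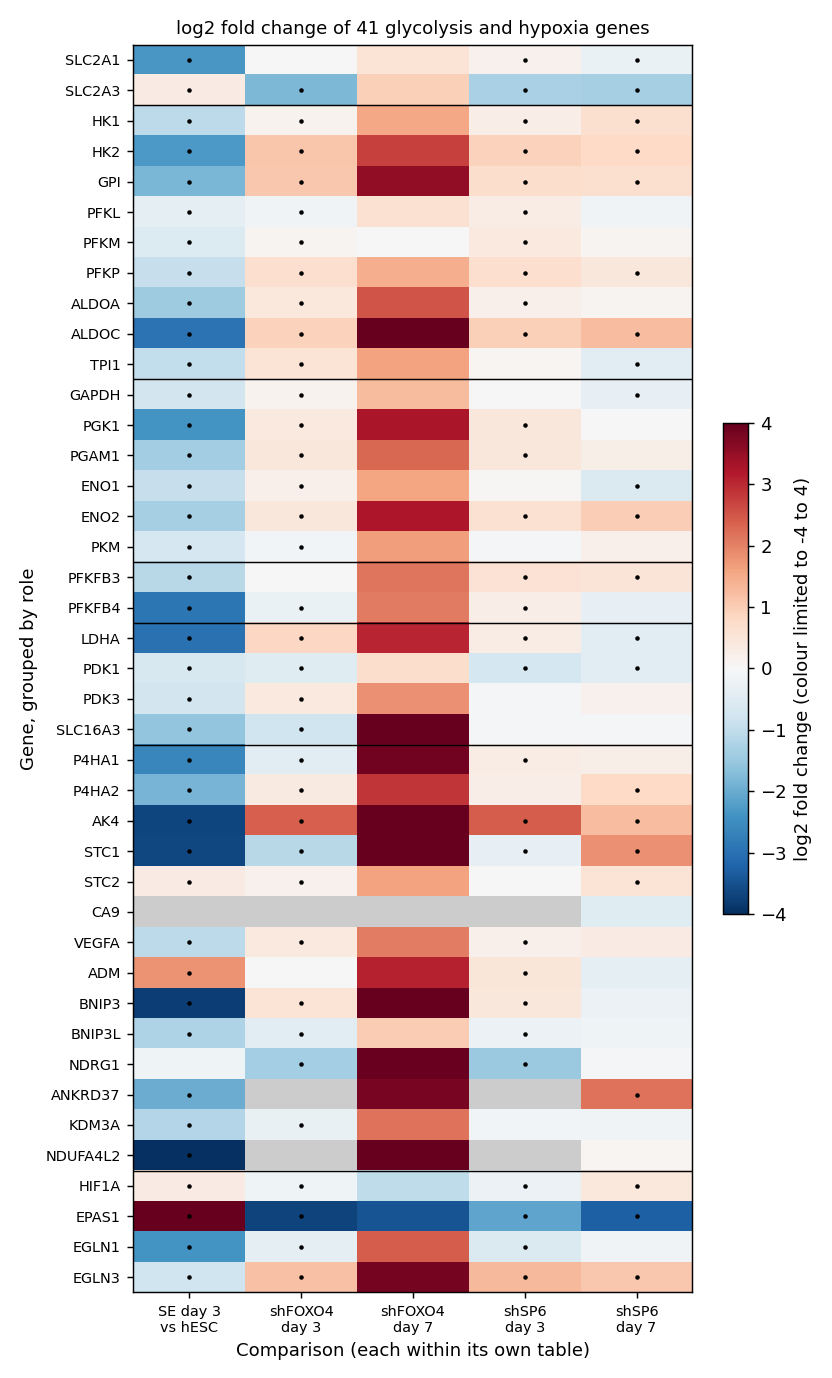
log2 fold change of the 41 genes (rows, grouped by role) in the 5 comparisons (columns). Grey cells did not pass the filter or were not listed, and dots mark an adjusted p under 0.05, not given for shFOXO4 at day 7, on which the genes were chosen. SE day 3 is blue for 34 called genes and shFOXO4 at day 7 is red for every tested gene but PFKM, HIF1A and EPAS1.

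At day 3 most glycolytic enzymes were also higher in the FOXO4 knockdown, by small amounts, and the HIF targets outside glycolysis were divided. Of 38 genes that passed the filter 21 rose and 14 fell, where 31.8% of 15697 genes rose and 30.8% fell, and the median log2 change was 0.14. Of the 15 enzymes 13 rose, with a median of 0.43. HK2 was at 1152 and 1112 normalized counts in scramble and at 2406 and 2516 in shFOXO4 (log2 change 1.12, SE 0.05, adjusted p 9.2e-23), and GPI at 2862 and 2861 against 6120 and 6033. LDHA rose 1.79-fold and ALDOC 1.92-fold. PFKL (-0.13) and PKM (-0.10) fell by small amounts. SLC2A3, at 57412 and 55200 in scramble, was at 15771 and 16798 in the knockdown, a 3.46-fold fall, and SLC16A3 fell 1.74-fold.

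Of 11 hypoxia-induced genes outside glycolysis 5 rose and 5 fell at day 3. Over all 15697 genes 31.8% rose and 30.8% fell, the shares for every list in this paragraph. AK4 stood out, at 275 and 270 in scramble against 1356 and 1536 in shFOXO4 (log2 change 2.40, SE 0.07, adjusted p 1.2e-29). BNIP3 (0.55), VEGFA (0.40), P4HA2 (0.37) and STC2 (0.16) rose as well. NDRG1 (-1.37), STC1 (-1.10), P4HA1 (-0.43), BNIP3L (-0.42) and KDM3A (-0.29) fell, all of them genes that stood higher at day 7. ANKRD37, NDUFA4L2 and CA9 were below the filter, at 0 to 7.44 normalized counts. EGLN3 rose 2.26-fold while EGLN1 fell 1.27-fold, HIF1A fell 1.12-fold, and EPAS1 went from 2492 and 2779 to 203 and 202, a 13-fold fall. Of 37 further HIF targets that passed, 10 rose and 17 fell, with a median of -0.20 (8 and 17 of the 35 whose group means both reached 10), and without replicate 2 of shFOXO4 the count of those that rose was 5. CA12 (-2.35), IGFBP3 (-2.06) and MXI1 (-2.0) were among those that fell. Of 16 TCA cycle genes 15 rose, with a median of 0.47. Without a given library 7 of the 35 calls among the 41 genes were lost, those of EGLN1, HK1, PFKFB4, PFKL, PFKM, PKM and STC2. HK1 was lost without replicate 2 of scramble, EGLN1 without replicate 1 of shFOXO4, and the other 5 without any of at least 2 libraries.

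The SP6 knockdown at day 3 also raised most glycolytic enzymes against its own scramble. Of 38 genes 21 rose and 8 fell, where 28.3% of 16548 genes rose and 27.5% fell. Of the 15 enzymes 11 rose, led by ALDOC (log2 change 0.96, SE 0.09), HK2 (0.92) and GPI (0.71). GPI was at 3150 and 3513 in scramble and at 5633 and 5294 in shSP6. GAPDH (0.02), ENO1 (0.03), TPI1 (0.06) and PKM (-0.03) were not called. AK4 was at 538 and 684 against 3288 and 3269 (log2 change 2.43, SE 0.10, adjusted p 5.7e-08), and EGLN3 rose by 1.28. ADM (0.49), BNIP3 (0.46), P4HA1 (0.29) and VEGFA (0.20) rose by less, and NDRG1 (-1.47), STC1 (-0.31) and BNIP3L (-0.22) fell. SLC2A3 fell 2.45-fold and PDK1 1.63-fold. EPAS1 was at 8283 and 5291 against 1387 and 1724, a 4.36-fold fall. NDUFA4L2 was not listed in this table. The further HIF targets were split, 15 higher and 12 lower of 38, ANGPTL4 among the higher having passed the filter only through shSP6. Without a given library 8 of the 29 calls were lost (ALDOA, BNIP3L, HIF1A, P4HA1, PFKFB4, SLC2A1, STC1 and VEGFA), and 5 genes were called lower without replicate 2 of shSP6.

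The effects of both knockdowns at day 3 were compared in a fit over the 8 libraries of both tables. The shSP6 effect was higher than the shFOXO4 effect in 10 of 38 genes and lower in 5, where 18.7% of all 15476 genes were higher and 18.1% lower (36.8% in either direction), and 23 were not called. The shFOXO4 effect was the greater one for LDHA (difference of log2 changes -0.54, SE 0.07, adjusted p 3.0e-05), TPI1 (-0.48, SE 0.07) and PDK3 (-0.47, SE 0.13). EPAS1 (1.60, SE 0.20, adjusted p 1.3e-05) and STC1 (0.78) fell further under shFOXO4, and P4HA1 (0.71) fell under shFOXO4 and rose under shSP6. For AK4, the highest riser in both, the log2 changes were 2.43 under shSP6 and 2.40 under shFOXO4. Without replicate 2 of shFOXO4 the call for PDK3 was lost, and without replicate 1 of the SP6 scramble 8 genes were called lower.

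At day 7 the SP6 knockdown split the 41 genes, with fewer higher and more not called than at day 3. Of 41 genes, all of which passed the filter, 14 rose and 8 fell, where 29% of 17535 genes rose and 29.6% fell, and 19 were not called. The median log2 change was 0.10. At least 2-fold higher were 5 genes, where 13.7% of genes were, and at least 2-fold lower were 2, where 11.1% were. The genes that rose most were ANKRD37, at 21.6 and 31.0 normalized counts in scramble and 154 and 94.3 in shSP6 (log2 change 2.18, SE 0.30, adjusted p 0.00016), and STC1, at 261 and 452 against 1299 and 1162 (1.84, SE 0.21, adjusted p 4.0e-05). AK4 rose by 1.25, ALDOC by 1.22, EGLN3 by 1.09 and ENO2 by 0.98. These genes are drawn from both the enzymes and the HIF targets, and in each the libraries of the groups did not overlap.

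The enzymes were divided. Of 15, HK1, HK2, GPI, PFKP, ALDOC and ENO2 rose, TPI1 (-0.43), GAPDH (-0.33) and ENO1 (-0.57) fell, and 6 were not called. PGK1 was at 18799 and 28689 in scramble and at 25339 and 21548 in shSP6 (log2 change 0.01, SE 0.16), so the groups overlapped. LDHA fell, from 18885 and 27095 to 18084 and 14783 (-0.47, SE 0.15, adjusted p 0.023). SLC2A3 fell 2.48-fold and SLC2A1 1.21-fold. SLC16A3, 27.2-fold higher in shFOXO4 at day 7, was at 5826 and 7135 in the SP6 scramble and at 7266 and 5255 in shSP6 (log2 change -0.06, SE 0.14). BNIP3 (-0.22, SE 0.15), NDRG1 (-0.04, SE 0.20) and NDUFA4L2 (0.07, SE 0.31) were likewise not called, and their groups overlapped. Of 14 hypoxia-induced genes outside glycolysis 5 rose and 9 were not called. Over all 17535 genes 29% rose and 29.6% fell, the shares for the enzymes too. EPAS1 fell 10-fold, from 4513 and 2770 to 367 and 359, and HIF1A rose 1.34-fold, from 2810 and 2524 to 3348 and 3794.

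The scramble libraries of this table differed from each other in these genes. Replicate 2 was above replicate 1 in 38 of the 41 genes, by a median of 1.34-fold, while 47.7% of all genes were higher in replicate 2. In shSP6 replicate 2 was above replicate 1 in 4 of 41, by a median ratio of 0.85. The pluripotency sum also differed, 74358 in scramble replicate 1 and 89397 in replicate 2. Counts of calls depended on these libraries. Lower calls numbered 14 without scramble replicate 1, 5 without scramble replicate 2 and 3 without shSP6 replicate 2, and higher calls ranged from 11 to 20. PGK1, not called with all libraries, fell by 0.30 on the log2 scale without scramble replicate 1 (limma adjusted p 0.028) and rose by 0.31 without scramble replicate 2 (0.019). Without a given library 8 of the 22 calls were lost: TPI1, GAPDH, SLC2A1, LDHA and PDK1 without shSP6 replicate 2, GPI, STC2, PFKFB3 and PDK1 without shSP6 replicate 1, LDHA, SLC2A1 and PDK1 without scramble replicate 2, and PFKFB3 without scramble replicate 1. The rises of ANKRD37, STC1, AK4, ALDOC, EGLN3 and ENO2 and the falls of EPAS1 and SLC2A3 remained without any library. 

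**Figure D3:**
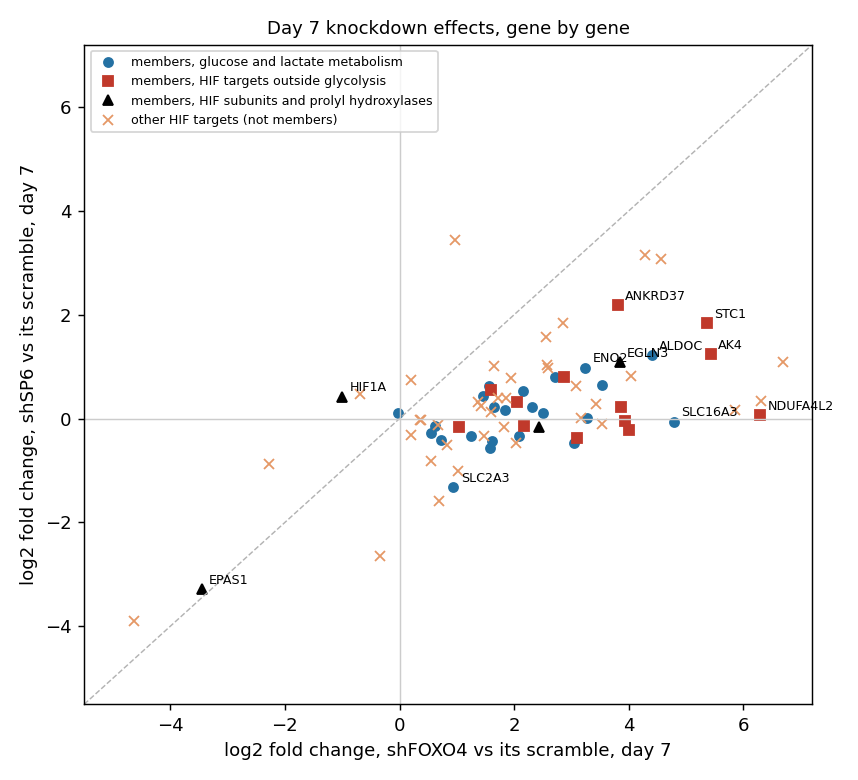
log2 fold change of each gene in shFOXO4 (horizontal axis) and shSP6 (vertical axis) at day 7, each against its own scramble. Shown are the 40 of the 41 genes that passed the filter in both, by role (not CA9), and the 38 further HIF targets. BHLHE41 and PPP1R3C are plotted, but their horizontal positions are not read as sizes, since their FOXO4 scrambles lie under the floor. The dashed line marks equal effects. Most points lie far to the right and near 0 on the vertical axis, while EPAS1 lies near the line at -3.45 and -3.28.

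Whether shSP6 shares the day 7 pattern was tested in the 38 further HIF targets, since the 41 genes were chosen on that pattern. Under shSP6 at day 7, 15 rose and 8 fell, where 29% of all genes rose and 29.6% fell, with a median log2 change of 0.26. In a fit over the 8 libraries of both tables the shSP6 effect was lower than the shFOXO4 effect in 31 of the 38 and higher in 5, where 29.1% of 16043 genes were lower and 19.9% higher (49% in either direction). The median difference of log2 changes was -1.41, against -0.11 for all genes, and quantile scaling moved the latter up by 0.15. Without the 6 targets whose FOXO4 scramble had a mean under 10, it was lower in 26 of 32 and higher in 5. PPFIA4 differed by -5.68 (SE 0.38, adjusted p 6.3e-07). BHLHE41 and PPP1R3C were called lower too, with no size given. IGFBP3 fell in both (-3.90 under shSP6 and -4.64 under shFOXO4). CXCR4, a chemokine receptor, rose in both, from 17.1 and 26.6 to 212 and 181 under shSP6 and from 6.69 and 8.0 to 146 and 176 under shFOXO4. With any library left out 26 to 32 of the 38 were called lower, and 3 to 5 higher. The count of those higher was 3 without replicate 2 of the FOXO4 scramble, replicate 2 of the SP6 scramble, replicate 2 of shFOXO4 or replicate 1 of shSP6. The count of targets that rose under shSP6 was 23 without replicate 2 of its scramble.

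Levels were then set side by side across tables as recovered reads scaled to one common library total (CPM), a description with no test since the tables were made separately. At day 3 the SP6 scramble was at a median of 1.03 times the FOXO4 scramble over 40 genes, with 17 above, 12 below and 11 overlapping, where 32.5% of 15476 genes were above and 36.3% below. At day 7 the SP6 scramble was above the FOXO4 scramble, with no overlap, in 38 of 41 genes, by a median of 2.35-fold, where 51.9% of 16043 genes were above and 28.8% below, with a median of 1.13-fold. The FOXO4 libraries of day 7 are those on which the 41 genes were chosen, so nothing is read from that count. Of the 38 further HIF targets 27 were above, 5 below and 6 overlapping, with a median of 1.88-fold. BNIP3 was at 177 and 245 CPM in the SP6 scramble and at 32.1 and 24.7 in the FOXO4 scramble. PGK1 was at 951 and 1460 against 202 and 216. AK4 was at 55.0 and 78.6 against 4.67 and 4.02. The set of libraries and the scramble group cannot be told apart.

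Set against hESC, the FOXO4 scramble of day 7 was at a median of 0.327 of the hESC level over the 41 genes, the SP6 scramble of day 7 at 0.839, and shFOXO4 of day 7 at 1.38, where the medians over all genes tested in both tables were 0.855, 0.966 and 0.855. The SP6 knockdown at day 7 was at a median of 0.662 of the shFOXO4 level, with 33 of 41 genes below without overlap and 10 at least 2-fold below, where 29.4% and 3.82% of 16043 genes were, and shFOXO4 is again a group on which the genes were chosen. The 15 enzymes were at a median of 47.5% and 47.7% of hESC in the SE day 3 libraries, 134% and 130% in shFOXO4 at day 7, 109% and 89.6% in shSP6 at day 7, 33.2% and 32.1% in the FOXO4 scramble of day 7 and 79.0% and 102% in the SP6 scramble. For the hypoxia-induced genes outside glycolysis shFOXO4 at day 7 was at 177% and 195% of hESC, where the next highest library, of shSP6 at day 7, was at 103%. SLC16A3 was at 791 and 882 CPM in shFOXO4 at day 7 against 240 and 233 in hESC, and NDUFA4L2 at 57.7 and 61.9 against 9.66 and 9.21. PGK1, at 1922 and 2013 against 2022 and 1857, and AK4, at 176 and 192 against 195 and 206, were near their hESC levels. The shFOXO4 values therefore comprised genes near the hESC level and genes well above it. The median over the 16 TCA cycle genes kept to a narrower range, 73.8% to 131% of hESC over all libraries. Single TCA cycle genes varied more. In shFOXO4 at day 7, 2 were at least 2-fold above hESC and 2 at least 2-fold below, where 1030 and 1492 of 15519 genes were.

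**Figure D4:**
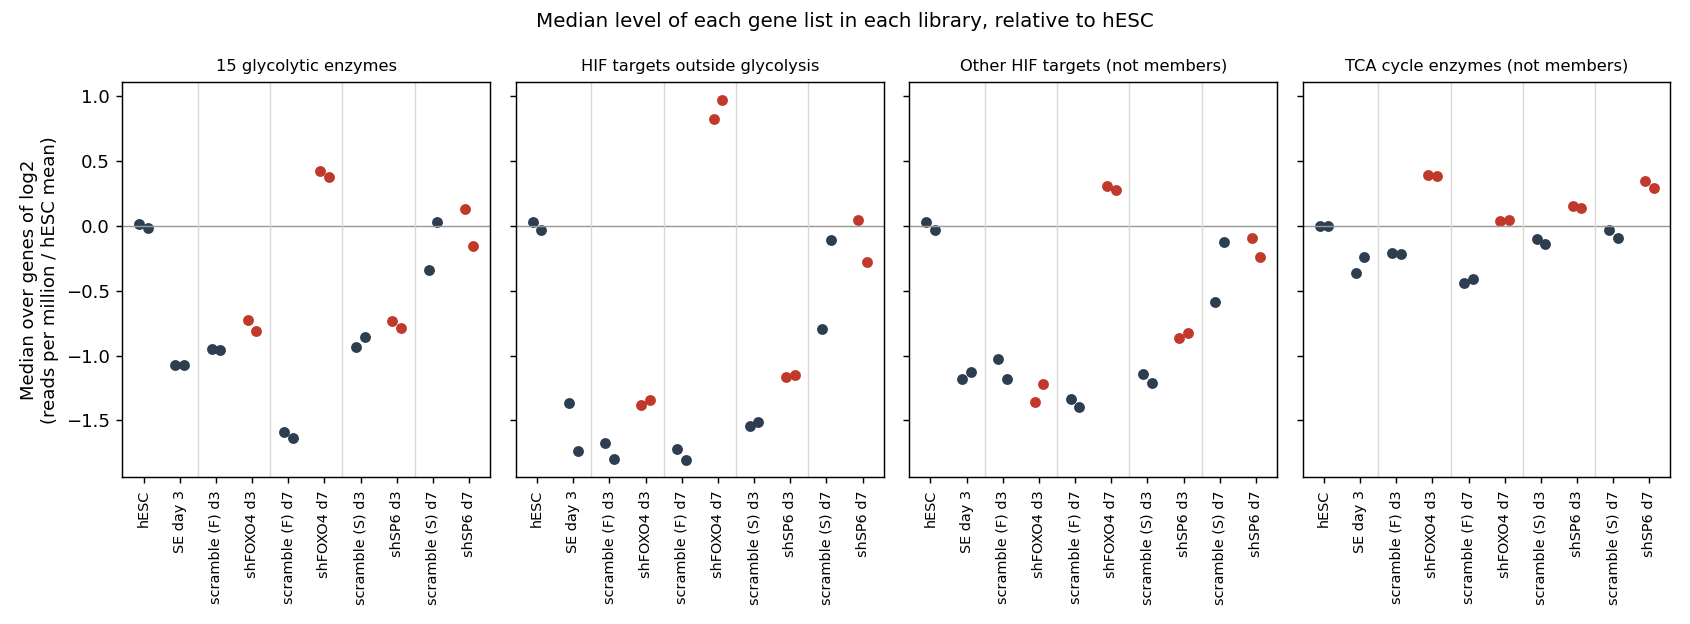
Median over the genes of each list of log2(CPM relative to the hESC mean), 1 point a library, knockdowns in red; grey lines part the tables. The shFOXO4 libraries of day 7 are the highest of the 20 in the 3 glycolysis and HIF panels, and the scramble libraries of day 7 differ between tables in those panels.

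The change of the shSP6 effect with time was tested in the 8 libraries of its tables. The day 7 effect was lower than the day 3 effect in 12 of 38 genes and higher in 5, where 20.3% of 15992 genes were lower and 14.8% higher (35.1% in either direction). AK4 rose by 2.43 at day 3 and by 1.25 at day 7 (difference -1.19, SE 0.20, adjusted p 0.00085). EPAS1 fell further at day 7 (difference -1.18, SE 0.31), and the difference for ADM was -0.86 (SE 0.28). STC1 went from a fall to a rise (difference 2.15, SE 0.28, adjusted p 0.00016), NDRG1 from a fall to no call (1.42, SE 0.27) and HIF1A from a fall to a rise (0.65, SE 0.12). Without a given library 10 of these 17 calls were lost, ADM among them without each library but replicate 2 of scramble at day 3 and replicate 1 of scramble at day 7. The lower calls numbered 4 without shSP6 replicate 2 of day 7 and 6 without scramble replicate 2 of day 7 or either shSP6 library of day 3. The higher calls numbered 11 without scramble replicate 2 of day 7, and 3 without scramble replicate 2 of day 3, scramble replicate 1 of day 7, shSP6 replicate 1 of day 3 or shSP6 replicate 1 of day 7.

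Across genes, which are not independent replicates, the changes in a knockdown tended to run opposite to those from hESC to SE day 3. Over all genes tested in both comparisons Pearson's r was -0.65 (Spearman's rho -0.63) for shFOXO4 at day 7, over 15519 genes. No value is given for the 41 genes there, since they were chosen on those changes. For shSP6 at day 7 it was -0.52 (rho -0.28) over 40 of the 41 genes and -0.65 (rho -0.55) over 15802 genes. For shFOXO4 at day 3 it was -0.59 (rho -0.35) over 38 of the genes and -0.57 (rho -0.47) over 15070 genes. For shSP6 at day 3 it was -0.57 (rho -0.40) over 38 and -0.61 (rho -0.52) over 15545. In these 3 comparisons the rank correlation lay nearer to 0 over the glycolysis and hypoxia genes than over all genes. Pearson's r did so for shSP6 at both days but not for shFOXO4 at day 3 (-0.59 against -0.57). These gaps rest on 38 to 40 genes and were not tested.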

How the data were processed

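RNA from 20 libraries was sequenced after TruSeq Stranded mRNA preparation, per the labels' protocols. Per the submitters' processing notes the tools were DESeq2 1.20.0, RSEM 1.3.0, STAR 2.6.1 and Trimmomatic 0.39 and the build was hg19, with no roles given. The deposited values are a signal, normalized read counts scaled by the authors within each of 5 tables of 4 libraries. Division by 1 step per library gave whole reads for 100% of values in all 20 libraries (tolerance 0.001 reads), 14937104 to 30328846 per library. Identifiers were matched to symbols. PECAM1, G6PC1 and PGAM2 were not analysed here.

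A gene was tested where its mean over a table reached 10, with limma 3.58.1 (R 4.3.3, trend) on log2(value + 1), so fold changes on that scale understate those of low genes. Benjamini-Hochberg adjustment ran over all genes tested, at 0.05. Fold differences in the text are ratios of group means. Each comparison used the 4 libraries of its table, and differences between effects the 8 libraries of both tables in 1 fit. edgeR 4.0.16 and DESeq2 1.42.0 were run on the recovered whole reads as alternatives. The steps were tested on simulated data. No fold or log2 change of a single gene is given in the text against a group at or under a mean of 3 reads a library. Counts of further HIF targets whose group means both reached 10 were added after seeing the data. Counts of replicate libraries (2 a group) limit the precision.

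The members and lists were chosen with earlier results of these data known. All 41 genes could be named. Of each other list the rule named up to 4 genes past the threshold whose mean reached 100, by size of change, and in each difference the 3 highest and 3 lowest. Genes of other lists named beyond that were chosen after their values were seen. Promoter windows came from RefSeq. A result that the naming rule would give is not reported here.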

Additional observations from a re-analysis of the deposited data

Results flagged for a closer look

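Several effects differed between days or between knockdowns by a test of the difference itself (limma over 8 libraries, adjusted p under 0.05). Between day 7 and day 3 of shSP6, 17 of the 38 genes tested differed (44.7%), where 35.1% of all genes did. The named differences of log2 changes were -1.19 for AK4, -1.18 for EPAS1, -0.86 for ADM, 2.15 for STC1, 1.42 for NDRG1 and 0.65 for HIF1A. Over these days the summed pluripotency markers of the scramble libraries went from 69831 to 81612 at day 3 to 74358 to 89397 at day 7, and their part in the differences was not tested.

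Between shSP6 and shFOXO4 at day 3, 15 of the 38 genes tested differed (39.5%), near the 36.8% of all genes that did. The named differences were -0.54 for LDHA, -0.48 for TPI1, -0.47 for PDK3, 1.60 for EPAS1, 0.78 for STC1 and 0.71 for P4HA1. EPAS1 itself stood higher in the SP6 scramble (8283 and 5291 normalized counts) than in the FOXO4 scramble (2492 and 2779), in tables scaled separately.

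Between shSP6 and shFOXO4 at day 7, 36 of the 38 further HIF targets differed, 31 of them lower and 5 higher under shSP6, where 49% of all genes differed. Of the 38, 6 passed the filter in the FOXO4 comparison only through shFOXO4, where they are high. Without these 6, 26 of 32 were lower and 5 higher. The SP6 scramble of day 7 was above the FOXO4 scramble in 27 of the 38, below in 5 and overlapping in 6, where 51.9% of all genes were above and 28.8% below. The part of that in the difference was not tested.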

How the results depend on the processing

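Of the values of single genes under every alternative, 5212 kept their direction and side of the threshold, 166 were no longer called, 42 became called, 20 moved by more than the spread between replicates and 1 reversed. The 20 were genes of the list under quantile scaling in shFOXO4 at day 7, with a median log2 difference over the 40 of 2.26 against 2.24. The reversed value was PGK1 under shSP6 at day 7, at -0.30 without scramble replicate 1 and 0.31 without scramble replicate 2. The cause was not tested. Among counts, the further HIF targets that rose in shFOXO4 at day 3 (10) numbered 5 with DESeq2 and 6 with a mean of at least 50. The genes at least 2-fold lower in shFOXO4 at day 7 (2) numbered 1 with a pseudocount of 5 and 1 with quantile scaling. The genes that fell in shSP6 at day 7 (8) numbered 5 with no filter and 5 with quantile scaling. With each library left out in turn, in fits where the lone library of a group is assumed to vary like the others, these counts ranged from 5 to 9, 1 to 2 and 3 to 14. The genes that fell in shSP6 at day 3 ranged from 5 to 8, and the further HIF targets that rose at day 7 from 10 to 23. For shSP6 at day 7 minus day 3, higher genes ranged from 3 to 11, lower genes from 4 to 16 and higher HIF targets from 8 to 14. For shSP6 minus shFOXO4, lower genes at day 3 ranged from 4 to 8, lower HIF targets at day 3 from 3 to 6 and higher HIF targets at day 7 from 3 to 5. Same-numbered libraries did not deviate together (correlations -0.050 to 0.059), so the numbers only name libraries. A replicate block gave 11951, 10030, 12102, 8879 and 10073 called genes in the 5 comparisons, against 11710, 9838, 11881, 9232 and 10268, and moved no count of calls by over 1.5 times. edgeR on whole reads called 11891, 9935, 12092, 9330 and 10414 genes, and DESeq2 10097, 7639, 10504, 7021 and 8510. Genes near the filter, such as CA9, ANKRD37 and NDUFA4L2, are limited by depth.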
